A study of Verbena bonariensis with 6 samples.

Results

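Dof factors are transcription factors found only in plants, which bind DNA through a single zinc finger of the C2C2 type. A cluster is the numbered unit into which the authors grouped the transcript sequences assembled from leaf RNA, and 112 of the 9740 clusters of the deposited table of transcription factors and other regulators stood in the family C2C2-Dof. Of these, 31 carried the words cyclic Dof in the description of the best matching protein, either in the NR collection of NCBI or in Swissprot, and both descriptions gave the same 31 clusters. The other 81 are called the other Dof clusters here. The 112 clusters shared 36 best matches in NR, 8 for the cyclic Dof clusters and 28 for the others, and none of these matches was shared with a cluster of another family. Gene names are those of the best matches in other species, with the cluster that holds most of the reads given to tell matches of the same name apart.

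The leaves came from 3-month-old seedlings of *Verbena bonariensis*, strain Finesse, grown under a 16 h photoperiod at 25 °C by day and 16 °C by night according to the labels. The 3 control libraries came from plants left in these conditions, and the 3 cold libraries from plants moved to 4 °C for 24 h and thereafter to -4 °C for 4 h. The labels call the libraries biological replicates. The treatment lasted over a day and a night, no library of plants held at 4 °C alone was analysed here, and the hour at which either group was sampled is not given in the sources used here, so chilling, freezing and time of day cannot be told apart.

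In Arabidopsis, cyclic Dof factors repress CONSTANS and FT, the genes that start flowering in long days. Their own transcripts follow a daily rhythm in which pseudo-response regulators hold them down, and the proteins are removed in the afternoon by a complex of the blue-light F-box protein FKF1 with GIGANTEA. The rest of the family acts in many places, among them the vascular tissue (DOF5.6, DOF5.1, DOF2.4, DOF4.6), guard cells (DOF5.7), seed germination (DOF3.7), light signalling (DOF1.5), cell division and expansion (DOF5.4) and, in cereals, the storage proteins of the grain (PBF).

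The table held 991180 to 1213366 estimated counts in the control libraries and 722556 to 791041 in the cold libraries, of which 11533 to 13821 and 12493 to 13941 belonged to Dof clusters. Estimated counts can be fractional, as they are where a counting program shares a read among several sequences, and 90 Dof clusters had at least 1 fractional count. Counts of libraries of the same group differed by more than sampling noise (chi-square per cluster 2.77 to 4.24 over clusters with whole counts), so no library was a repeat of another. The Pearson correlation of log2 normalized counts across clusters was 0.851 to 0.864 within control, 0.780 to 0.783 within cold and 0.374 to 0.398 between the groups; clusters are not independent replicates. The 58 clusters matched mainly to the leaf factors GLK and YABBY summed to 155 to 166 FPKM in control and 162 to 170 in cold, PLETHORA, which marks root tips, had no cluster, and DEFICIENS, which marks petals and stamens, summed to 1.20 to 1.83 FPKM in control and 0 to 0.080 in cold. FPKM is the number of fragments per kilobase of cluster scaled to the reads of the library, so that it compares genes per length. The deposited values fit a cluster length shortened by 246 to 249 bases in the control libraries and 231 to 239 in the cold libraries, which weighs most on short clusters.

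Of the 112 Dof clusters, 13 had no reads, 16 had reads in control only, 14 in cold only and 69 in both groups. Over all 9740 clusters of the table, 461 had no reads, 1071 had reads in control only, 771 in cold only and 7437 in both groups. The length of the Dof clusters ran from 375 to 3975 bases, with a median of 1461. A Dof domain of PFAM was annotated for 98 of them, that is for 79 of the 81 other Dof clusters and for 19 of the 31 cyclic ones. The 12 cyclic clusters without the domain were those matched to cyclic Dof factors of *Gossypium raimondii*. Each of the 12 had a predicted coding region of 267 bases found by ESTScan, a program that predicts coding sequence without a protein match. Their place in the family rests on the authors' assignment, and their place among the cyclic clusters on the description.

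The Dof transcripts as a whole stood higher in cold leaves, and most of that rise came from a single name. Summed over the 112 clusters, the Dof level was 481, 470.5 and 471 FPKM in the control libraries and 715, 736 and 727 FPKM in the cold libraries. The cold libraries were all above the control libraries, with means of 474 ± 5.74 and 726 ± 10.4 FPKM (SD, n = 3 each), a ratio of 1.53. The cyclic Dof clusters moved little, from 329 ± 4.85 to 297 ± 6.06 FPKM (SD, n = 3 each), with every cold library below every control library on this scale. In normalized CPM, which brings counts to a common library size by edgeR's TMM factors, they did not differ beyond the spread, at 8474 ± 35.9 and 8525 ± 243 (SD, n = 3 each), so that no direction of the cyclic sum holds across the scalings. The other Dof clusters went from 145 ± 1.003 to 429 ± 5.86 FPKM (SD, n = 3 each), a ratio of 2.97. The cyclic clusters thereby made up 69.5% ± 0.199 of the Dof FPKM in control and 40.9% ± 0.429 in cold (SD, n = 3 each).

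The 9 clusters matched to DOF5.4, known in Arabidopsis as OBP4, accounted for most of the difference. Their summed level was 12.3, 13.5 and 12.4 FPKM in control and 292, 303 and 285 FPKM in cold, so that they rose from 2.69% ± 0.158 to 40.4% ± 1.11 of the Dof FPKM (SD, n = 3 each). Without these 9 clusters, left out after their values were seen, the Dof sum was 461 ± 6.13 FPKM in control and 433 ± 9.77 in cold, and that of the other Dof clusters 132 ± 1.28 and 136 ± 5.14 (SD, n = 3 each). With DOF5.4 left out the other Dof clusters overlapped between the groups, at 131 to 133 FPKM in control and 133 to 142 in cold. In normalized CPM they stayed apart, at 2409 ± 46.3 and 3060 ± 92.5, and the sum of all Dof clusters without DOF5.4 turned to higher in cold, at 10883 ± 53.8 and 11585 ± 309 (SD, n = 3 each).

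**Figure D1:**
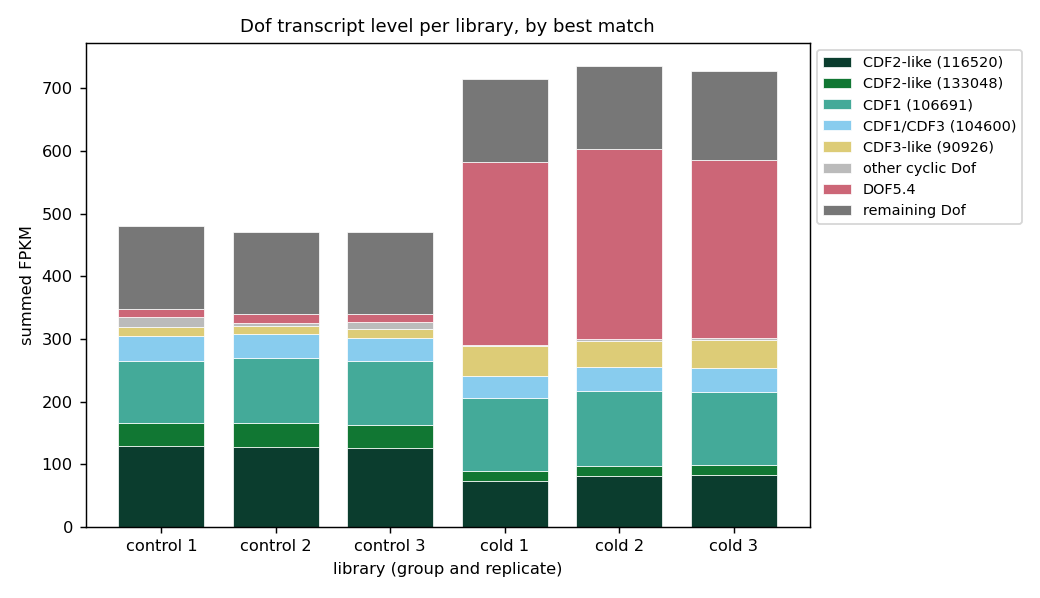
Bars show the FPKM of the Dof clusters summed per library and divided by best match; the legend gives the leading cluster of the cyclic matches, and DOF5.4 stands for the 9 clusters matched to it. The DOF5.4 part is 12.3 to 13.5 FPKM in the control libraries and 285 to 303 in the cold libraries, while the rest of the bar is 457 to 468 FPKM in control and 423 to 442 in cold.

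Sums hide the spread within the family, so each cluster was tested. In the quasi-likelihood test of edgeR, with p-values adjusted by the method of Benjamini and Hochberg over the 5004 clusters with enough counts, 45.5% of the clusters passed an adjusted p of 0.05, 21.9% higher and 23.6% lower in cold. Of the 112 Dof clusters 52 had enough counts to be tested, and 17 of them rose, 6 fell and 29 did not pass. The called share of 44.2% was thus near that of the table, with 32.7% of the tested Dof clusters higher and 11.5% lower. The split moved with the scaling, to 14 higher and 10 lower with whole-library totals and 17 and 14 in limma on log2(FPKM + 1). The median log2 fold change of the tested Dof clusters was 0.28, beside -0.14 over all tested clusters. Among the cyclic Dof clusters 13 were tested, of which 5 rose and 3 fell. Leaving out any control library reduced the 5 to 3, and leaving out cold library 3 raised the 3 to 5. Among the other Dof clusters 39 were tested, of which 12 rose and 3 fell.

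The counts of a best match were spread over its clusters in proportions that differed from library to library. Cluster-14918.108455 had 453 counts in control library 3 and none in the other 5 libraries, while Cluster-14918.106691, of the same CDF1 match, had 2258 and 2905 counts in control libraries 1 and 2, 2256 in control library 3 and 2061, 2177 and 2288 in the cold libraries. The sum of both was 2709 counts in control library 3, between the values of the other control libraries. Over the 21 pairs of match and group with at least 100 normalized CPM, the coefficient of variation between libraries was 3.83% at the median for the summed counts and 49.8% for the single clusters, and the sum varied less in 20 of the 21. Part of this gap was fixed in advance, since a sum cannot vary more than its clusters do on average, weighted by level. The minimum of 100 was also set on the sum and not on its clusters. Counts were also summed by best match over the whole table and tested in the same way. The results below are those of the matches unless a cluster is named.

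**Figure D2:**
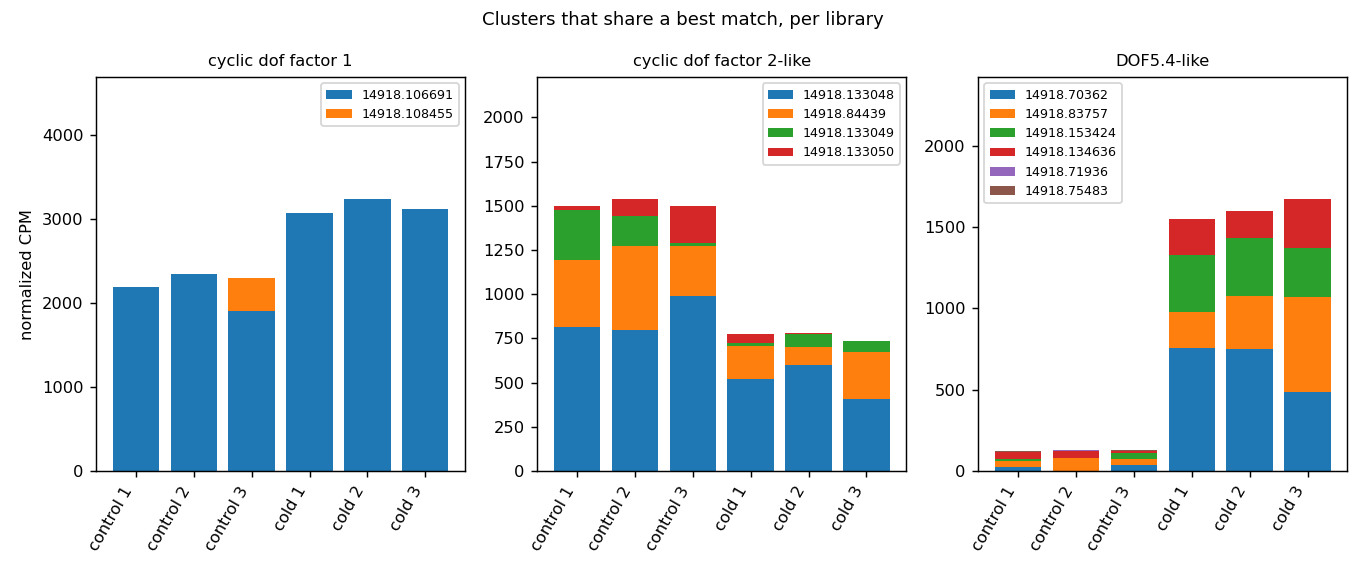
Stacked bars show normalized CPM of the clusters that share a best match in each of the 6 libraries, for a cyclic Dof factor 1 match, a cyclic Dof factor 2-like match and a DOF5.4 match. The division between clusters changes from library to library, while the height of the whole bar is alike within each group; Cluster-14918.108455 has 453 counts in control library 3 and none elsewhere.

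By best match, 72.3% of the 2296 matches of the table that could be tested passed, 34.6% higher and 37.7% lower in cold. Of the 36 Dof matches 32 were tested, and 14 rose, 7 fell and 11 did not pass, a called share of 65.6%. Their median log2 fold change was 0.11, beside -0.08 over all tested matches. All 8 cyclic matches were tested, of which 3 rose and 3 fell. Of the other 28 matches 24 were tested, of which 11 rose and 4 fell. The fold changes are scaled by TMM factors, which are estimated from the regulators alone, and separately for clusters and for matches. With the same counts, Cluster-14918.59004, the only cluster of its match, had a log2 fold change of 5.38 as a cluster and 5.51 as a match. A cluster and its match can therefore differ in fold change through the scaling alone. Scaled to the reads of the whole library, as FPKM is, the median over all tested matches moves down by 0.36 on the log2 scale, and that over clusters by 0.23, so that a match can have a lower FPKM in cold and a log2 fold change above 0.

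**Figure D3:**
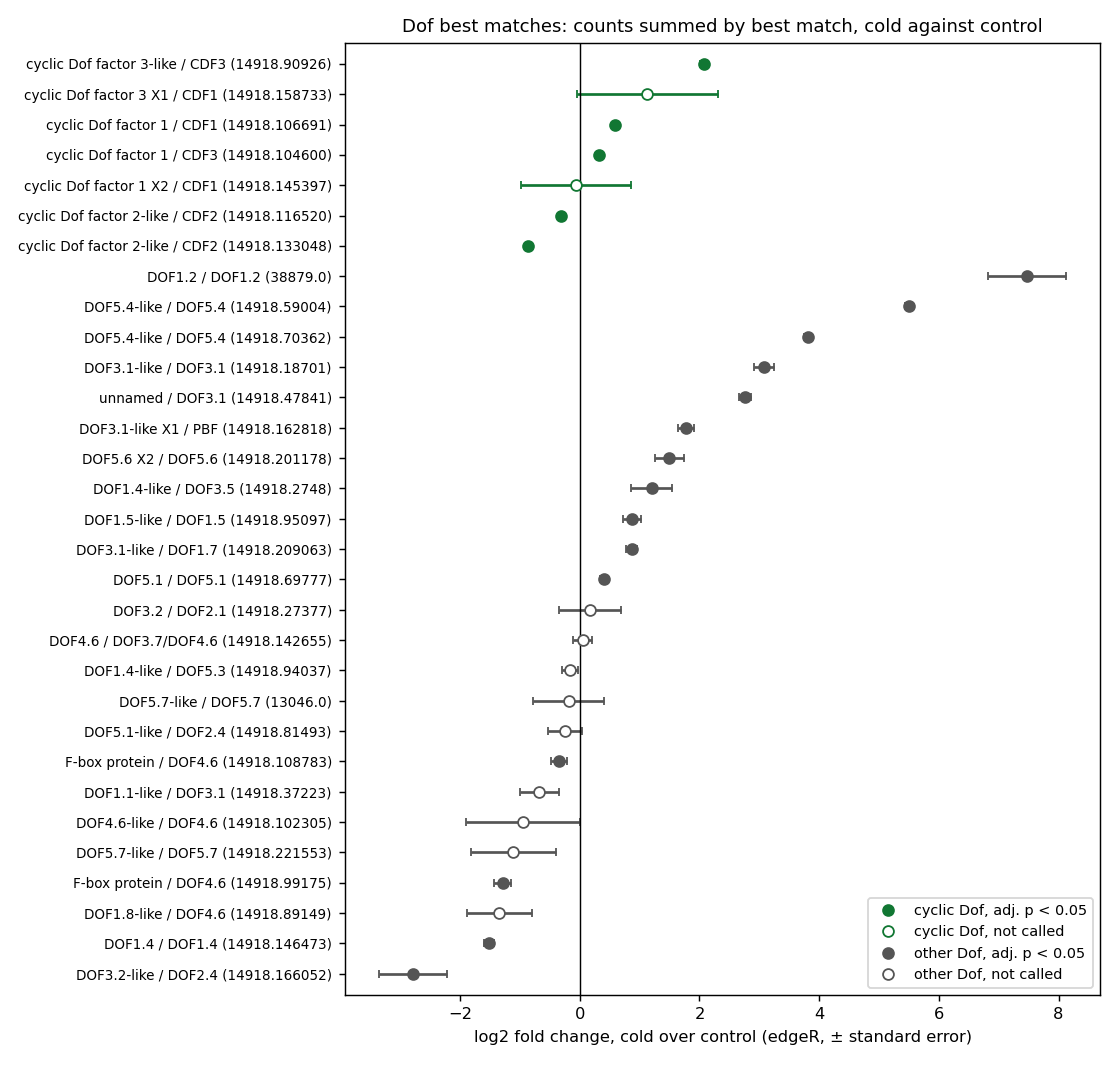
Points show the log2 fold change of each tested Dof best match with its standard error (edgeR, n = 3 libraries each), cyclic Dof in green and other Dof in grey, filled where the adjusted p was under 0.05. Labels give the NR name, the Swissprot name and the leading cluster; the cyclic match led by Cluster-14918.108452, at 0 counts in cold, has no finite fold change and is not drawn. The cyclic matches reach from -0.86 to 2.08, and the 2 DOF5.4 matches stand at 5.51 and 3.81.

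The cyclic Dof factors did not move in one direction: the CDF2-like matches fell, the CDF3-like match rose, and the CDF1 matches differed from each other. In Arabidopsis, CDF1, CDF2 and CDF3 act together in holding back flowering, and CDF3 has also been tied to tolerance of drought and cold. The most abundant member in control leaves was the CDF2-like match led by Cluster-14918.116520, with 4 clusters. Its summed level was 129, 128 and 125 FPKM in the control libraries and 73.2, 80.9 and 82.9 in the cold libraries. The groups were far apart, with means of 127 ± 2.07 and 79.0 ± 5.13 FPKM (SD, n = 3 each), and its log2 fold change was -0.31 ± 0.05 (SE, adjusted p = 9.89e-04, edgeR).

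Within this match the clusters did not move together. Cluster-14918.116520 itself fell from 3352, 4041 and 3753 counts to 1414, 1533 and 1618 (log2 fold change -0.56 ± 0.04 SE, adjusted p = 2.13e-04, edgeR). Cluster-14918.113801, which had no counts in control and 21.1, 87.96 and 128 in cold, was at least 129-fold higher in cold, taking 3 counts over the control group as the floor. Its counts were fractional and made up 1.42% to 6.85% of the counts of the match in cold. The bound covers counting error only, not a change in how reads were divided among the clusters of the match. The bound ran from 93.3 without cold library 3 through 118 without cold library 2 to 175 without cold library 1, and from 82.5 to 90.4 with 1 control library left out. Cluster-14918.124201 had 32.4, 44.4 and 54.1 counts in control and 51.4, 45.7 and 106 in cold, values that overlap as counts but not once scaled to library size; its log2 fold change of 1.36 ± 0.40 (SE, adjusted p = 0.0356, edgeR) did not pass without any of the control libraries (adjusted p = 0.0719 to 0.122) or without cold library 3 (log2 fold change 0.95, adjusted p = 0.0829), nor when scaled to the whole library (adjusted p = 0.0633). The leading cluster held 98.6% to 99.04% of the counts of the match in control and 86.9% to 94.97% in cold.

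The CDF2-like match led by Cluster-14918.133048, also with 4 clusters, fell further. It stood at 37.1, 38.5 and 37.2 FPKM in control and 16.2, 15.5 and 15.6 in cold. The values within each group were close and those of the groups far apart (log2 fold change -0.86 ± 0.04 SE, adjusted p = 4.90e-07, edgeR). Of its 4 clusters only Cluster-14918.133048 passed on its own, from 841, 986 and 1165 counts to 351, 402 and 298 (log2 fold change -0.77 ± 0.17 SE, adjusted p = 0.0130, edgeR).

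The third CDF2-like match, to a protein of *Populus euphratica*, had 6 clusters, of which 4 had no reads. Nearly all its counts were in Cluster-14918.108452, with 148, 38.9 and 132 in the control libraries and none in the cold libraries. The match was at least 60.8-fold lower in cold, with 3 counts over the cold group as the floor. The counts were fractional, and the bound does not cover reads divided with clusters of another match, which summing by match does not undo. Without control library 1, 2 or 3 the bound was 45.2, 81.4 and 56.0, and with 1 cold library left out it was 39.3 to 41.3. Control library 2, the deepest of the 6, had the lowest count of the control libraries. Its Swissprot match was CDF1, not CDF2.

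Of the matches named CDF1, the one led by Cluster-14918.106691 had 98.5, 104 and 102 FPKM in control and 116, 120 and 117 in cold. The groups did not overlap and differed by 1.16 times in mean FPKM, with a log2 fold change of 0.59 ± 0.04 (SE, adjusted p = 1.93e-06, edgeR) that was 0.23 when scaled to the whole library (adjusted p = 4.28e-04). In cold leaves it was the most abundant cyclic Dof match. The other, led by Cluster-14918.104600 and matched to CDF3 in Swissprot, had 39.2, 37.9 and 37.2 FPKM in control and 34.9, 37.8 and 37.7 in cold. These values overlapped. Its log2 fold change of 0.32 ± 0.05 (SE, adjusted p = 6.88e-04, edgeR) turned to -0.05 when scaled to the whole library (adjusted p = 0.40) and in limma on log2(FPKM + 1) (adjusted p = 0.43), so that no direction holds across the scalings. The same was true of Cluster-14918.104600 alone, at 0.23 ± 0.06 (SE, adjusted p = 0.0252, edgeR), which in addition passed only without cold library 1 among the 6 fits with a library left out (adjusted p = 0.0990 to 0.152 in the other 5) and turned to -0.01 when scaled to the whole library.

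The CDF3-like match was a single cluster, Cluster-14918.90926, whose counts were all whole. It had 14.9, 13.1 and 13.7 FPKM in control and 47.9, 42.4 and 45.2 in cold, from 281, 303 and 301 counts to 703, 633 and 732. The cold values were all far above those of control, and the 3.24-fold difference in mean FPKM was the largest among the cyclic matches with reads in every library. The log2 fold change was 2.08 ± 0.07 (SE, adjusted p = 4.60e-08, edgeR). The 2 matches to *Gossypium raimondii*, cyclic Dof factor 1 isoform X2 and cyclic Dof factor 3 isoform X1, stayed at or under 2.63 FPKM in all libraries, and each had a library at 0. Neither passed, with log2 fold changes of -0.06 ± 0.92 and 1.13 ± 1.18 (SE, adjusted p = 0.95 and 0.41, edgeR).

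**Figure D4:**
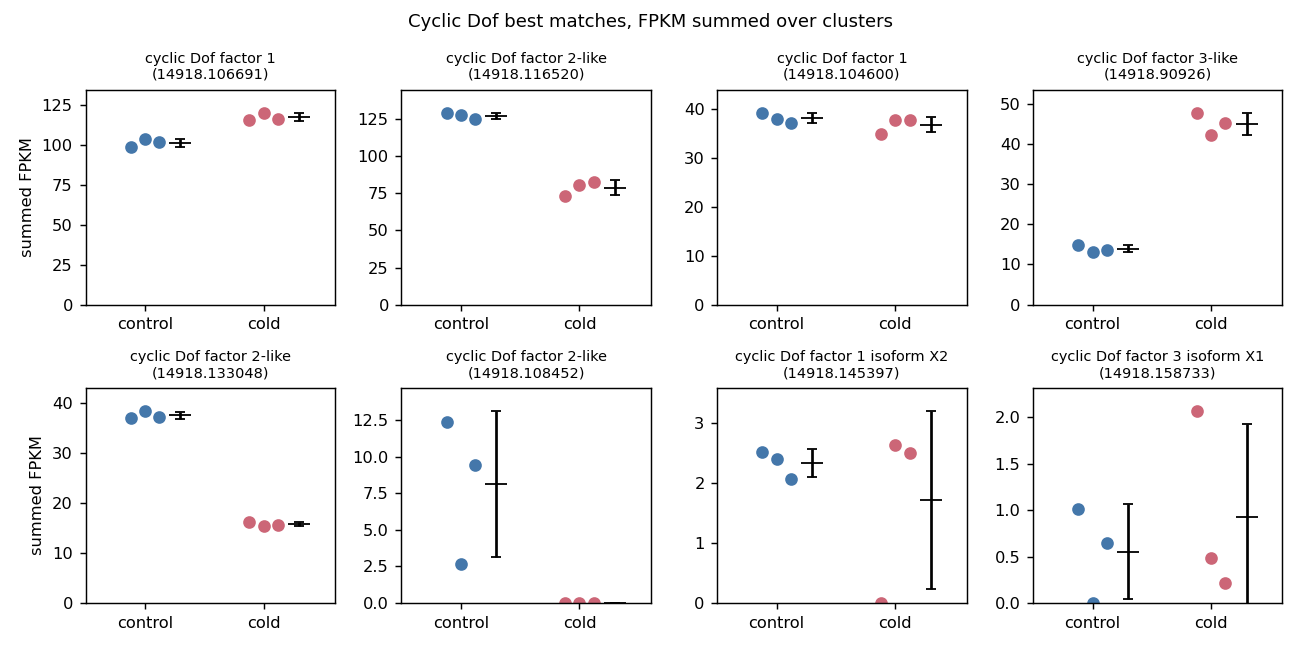
Panels show FPKM summed over the clusters of each of the 8 cyclic Dof best matches, with a point per library and the mean and SD of each group (n = 3); the number in brackets is the leading cluster. The CDF2-like matches led by Cluster-14918.116520 and Cluster-14918.133048 are lower in cold, the CDF3-like match rises from 13.1 to 14.9 FPKM to 42.4 to 47.9 FPKM, and the match led by Cluster-14918.104600 overlaps between the groups.

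The order of the cyclic matches by FPKM therefore differed between the groups. In control it ran from the CDF2-like match led by Cluster-14918.116520 (127 FPKM) and the CDF1 match led by Cluster-14918.106691 (101 FPKM) through the matches led by Cluster-14918.104600 (38.1 FPKM) and Cluster-14918.133048 (37.6 FPKM) to the CDF3-like match (13.9 FPKM). The third and the fourth did not differ beyond their spread, with library values of 37.2 to 39.2 and 37.1 to 38.5 FPKM. In cold the CDF1 match led (118 FPKM), followed by the CDF2-like match (79.0 FPKM), the CDF3-like match (45.2 FPKM), the match led by Cluster-14918.104600 (36.8 FPKM) and that led by Cluster-14918.133048 (15.8 FPKM), and the library values of these 5 did not overlap.

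The partners of the cyclic Dof factors in the photoperiod pathway were read from the same table. Over all its tested clusters, 21.9% passed as higher and 23.6% as lower in cold. The clusters matched to CCA1, a clock factor of the MYB type that peaks at dawn, summed to 373 to 409 FPKM in control and 134 to 145 in cold, and of 9 clusters, all tested, 1 rose and 5 fell. The pseudo-response regulators, which repress the cyclic Dof genes in Arabidopsis, summed to 74.5 to 81.7 FPKM in control and 621 to 643 in cold, and of 56 clusters 33 were tested, of which 24 rose and 3 fell. Within them the clusters matched to PRR95 went from 2.26 to 2.33 FPKM up to 317 to 325, while those matched to APRR1 stood at 37.1 to 40.4 and 31.3 to 33.4 FPKM. CONSTANS and its relatives, of which CONSTANS itself is the target of cyclic Dof factors, summed to 1555 to 1585 FPKM in control and 2992 to 3083 in cold. Of 99 clusters 61 were tested, of which 30 rose and 13 fell. The relatives went both ways. Clusters matched to CONSTANS-LIKE 5 stood at 476 to 513 FPKM in control and 824 to 882 in cold, and 7 of 11 tested rose. Those matched to CONSTANS-LIKE 16 stood at 71.6 to 73.8 and 4.88 to 8.02 FPKM, and 8 of 9 tested fell. The 1 cluster with the Swissprot match CONSTANS, as opposed to a CONSTANS-like protein, did not have enough counts to be tested, with 0 to 6.87 FPKM in control and 26.6 to 62.8 in cold. The list of blue-light F-box proteins and GIGANTEA had 1 cluster, not tested, and TOPLESS and FT had none in this table of regulators. The clock factors thus moved with the groups, and the part of the hour of sampling in the cyclic Dof values was not tested.

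Among the other Dof factors the DOF5.4 matches changed most in FPKM. In Arabidopsis DOF5.4 slows cell division and cell growth. Cluster-14918.59004, the only cluster of its match, had 138, 189 and 157 counts in the control libraries and 3908, 4136 and 4065 in the cold libraries, all whole numbers. In FPKM these were 6.25, 7 and 6.12 against 227, 237 and 215, and in cold this cluster alone stood above each of the cyclic matches. The log2 fold change was 5.51 ± 0.07 (SE, adjusted p = 3.30e-10, edgeR), and it stayed between 4.93 and 5.59 under every alternative scaling, filter and test.

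The second DOF5.4 match had 8 clusters, 6 of them with reads. It had 6.08, 6.48 and 6.26 FPKM in control and 65.0, 66.3 and 69.9 in cold. The libraries of a group lay close together and the 10.7-fold difference in mean FPKM was far outside their spread (log2 fold change 3.81 ± 0.06 SE, adjusted p = 8.44e-10, edgeR). All 4 tested clusters of the match rose, each less evenly than the sum. Cluster-14918.70362 had 28.4, 0 and 42.3 counts in control and 508, 503 and 357 in cold, and did not pass without control library 1 (adjusted p = 0.0541). Cluster-14918.153424, with 12.9, 0 and 42.8 counts in control and 238, 241 and 221 in cold, did not pass without control library 1 or any of the cold libraries (adjusted p = 0.0616 to 0.103), and its log2 fold change of 4.36 ± 1.20 (SE, adjusted p = 0.0291, edgeR) ran from 3.72 without control library 2 to 5.71 without control library 3. Cluster-14918.83757 rose from 35.4, 99.3 and 47.8 to 148, 220 and 430 counts.

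Of the matches with the Swissprot names DOF3.1 and PBF, 2 of 3 and 1 of 2 rose. The third of DOF3.1, named DOF1.1-like in NR, did not pass (log2 fold change -0.67 ± 0.32 SE, adjusted p = 0.0934, edgeR), and the second of PBF did not have enough counts to be tested. The DOF3.1-like match, Cluster-14918.18701, had 1.67, 1.57 and 1.90 FPKM in control and 12.01, 12.1 and 9.46 in cold (log2 fold change 3.08 ± 0.16 SE, adjusted p = 7.59e-07, edgeR). A match to an unnamed protein of coffee, DOF3.1 in Swissprot, had 3.98, 3.99 and 3.81 FPKM in control and 18.5, 22.2 and 20.5 in cold (log2 fold change 2.76 ± 0.10 SE, adjusted p = 9.71e-08, edgeR). Both groups were well apart in each case, and in the second both clusters of the match rose, Cluster-14918.47841 from 83.2, 85.1 and 89.3 to 236, 271 and 296 counts and Cluster-14918.47840 from 6.06, 24.7 and 10.1 to 86.8, 124 and 99.4 counts. For the latter, the log2 fold change of 3.68 ± 0.54 (SE, adjusted p = 3.11e-03, edgeR) was 4.31 without control library 2.

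The match with the Swissprot name PBF, the prolamin-box binding factor that switches on storage protein genes in the cereal endosperm, rose although none of its 5 tested clusters passed alone. It had 6.61, 6.59 and 5.28 FPKM in control and 16.2, 15.6 and 21.9 in cold, and cold library 3 was the highest of the 6 (log2 fold change 1.77 ± 0.14 SE, adjusted p = 8.21e-06, edgeR). Its leading cluster, Cluster-14918.162818, had 71.0, 46.3 and 0 counts in control and 177, 193 and 232 in cold.

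DOF1.2, Cluster-38879.0, came from next to nothing. It had 2 counts in control library 1, none in control libraries 2 and 3, and 87, 62 and 96 counts in cold. With counts pooled over the libraries of each group and set against their pooled normalized library sizes, the match was 223 times higher in cold, with an exact 95% counting interval of 61.0 to 1849 that covers counting error only, and its adjusted p was 1.89e-05 (edgeR). Its level in cold, 5.13 ± 0.98 FPKM (SD, n = 3), was still low beside that of DOF5.4, and without control library 1 the control group is at 0.

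Another 5 matches rose by less, named here after their values were seen. DOF5.6, which in Arabidopsis promotes the cambium between vascular bundles, went from 3.02 ± 0.45 to 5.56 ± 1.47 FPKM (log2 fold change 1.495), and the DOF1.4-like match named DOF3.5 in Swissprot from 2.01 ± 0.25 to 3.51 ± 0.88 (log2 fold change 1.20; SD, n = 3 each). The latter did not pass without cold library 3 (log2 fold change 0.98, adjusted p = 0.0638, edgeR) or when scaled to the whole library (adjusted p = 0.0557). Its only cluster, Cluster-14918.2748, did not pass when tested among the clusters (log2 fold change 1.07, adjusted p = 0.0709, edgeR). DOF1.5, which in Arabidopsis dampens phytochrome signalling, went from 6.47 ± 0.90 to 8.79 ± 1.03 FPKM, and the DOF3.1-like match named DOF1.7 in Swissprot from 5.06 ± 0.20 to 7.18 ± 0.15 (SD, n = 3 each), both with a log2 fold change of 0.87. DOF5.1, which acts in the early phloem of the Arabidopsis root, had 13.9 ± 0.51 FPKM in control and 13.0 ± 0.78 in cold (SD, n = 3 each). Its log2 fold change of 0.40 was 0.03 when scaled to the whole library (adjusted p = 0.66) and -0.09 in limma on log2(FPKM + 1) (adjusted p = 0.31), so that no direction holds across the scalings.

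**Figure D5:**
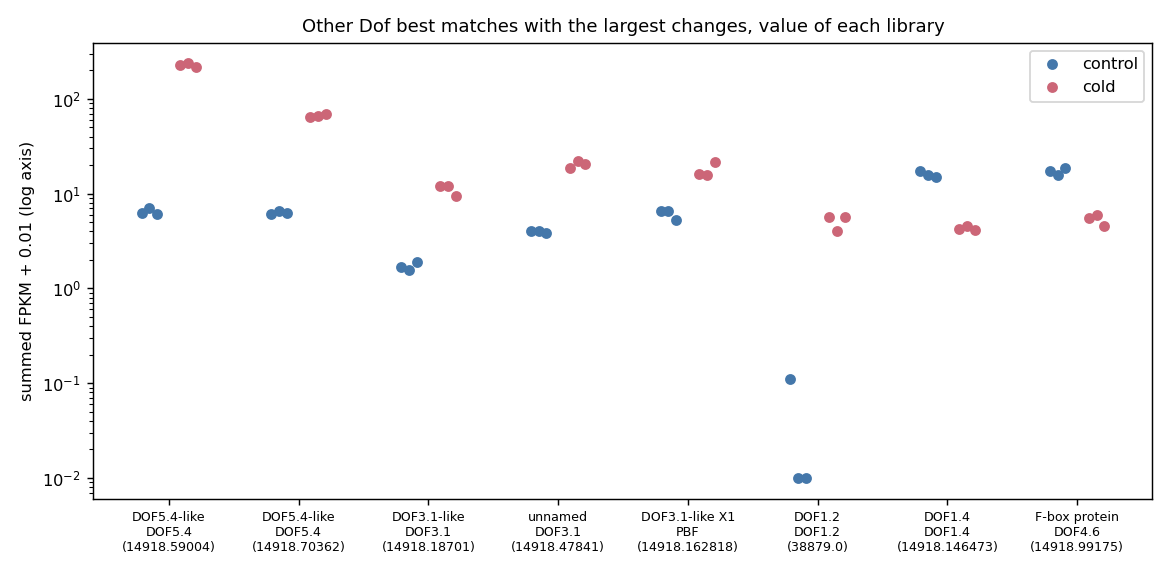
Points show summed FPKM plus 0.01 on a log axis for 8 of the other Dof best matches, with a point per library (3 control, 3 cold); labels give the NR name, the Swissprot name and the leading cluster. The 2 DOF5.4 matches and DOF1.2 have the widest gaps between the groups, and DOF1.4 and the F-box-named DOF4.6 match lie lower in cold.

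In the main test 4 of the other Dof matches fell, against 11 that rose. The split depended on the scaling, with 9 higher and 7 lower under whole-library totals and 10 each way in both limma settings. The DOF1.4 match had 17.2, 15.6 and 15.1 FPKM in control and 4.28, 4.58 and 4.14 in cold. The groups were far apart, and the log2 fold change was -1.52 ± 0.09 (SE, adjusted p = 1.65e-06, edgeR), while neither of its 2 clusters passed alone (adjusted p = 0.0715 and 0.0831). Its counts were 513, 568 and 527 in control and 97.6, 107 and 105 in cold, of which Cluster-14918.76130 held 49.8%, 45.4% and 70.1% in control and 0%, 37.2% and 27.2% in cold.

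Both matches named after an F-box protein of cacao in NR but DOF4.6 in Swissprot, a factor of the vascular tissue in Arabidopsis, were lower in cold. Cluster-14918.99175 had 17.3, 15.9 and 18.5 FPKM in control and 5.55, 5.99 and 4.52 in cold (match log2 fold change -1.29 ± 0.14 SE, adjusted p = 7.96e-05, edgeR). Cluster-14918.108783 had 7.65, 7.38 and 9.51 FPKM in control and 5.29, 4.75 and 4.79 in cold. The groups did not overlap, but the match log2 fold change of -0.35 ± 0.13 (SE, adjusted p = 0.0423, edgeR) passed without control library 2 alone among the 6 fits with a library left out (adjusted p = 0.0531 without control library 1, 0.122 without control library 3, 0.0618 to 0.104 without a cold library). Tested among the clusters, the same counts did not pass (log2 fold change -0.48 ± 0.16 SE, adjusted p = 0.0556, edgeR). Cluster-14918.108783 carried no PFAM Dof domain, and its place in the family rests on the authors' assignment.

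The lowest of the falling matches was the DOF3.2-like match named DOF2.4 in Swissprot, a factor of the early phloem in Arabidopsis. It had 0.55, 1 and 0.65 FPKM in control and 0.090, 0.030 and 0.15 in cold (log2 fold change -2.78 ± 0.57 SE, adjusted p = 2.70e-03, edgeR; -2.34 without cold library 2 and -3.39 without cold library 3). Its Cluster-14918.166052 had 34.5, 37.5 and 47.6 counts in control and none in cold, at least 24.0-fold lower with 3 counts over the cold group as the floor. With 1 cold library left out that bound was 15.5 to 16.3. Cluster-42811.0, matched to the guard cell factor DOF5.7, had 17.4, 18.6 and 19.1 counts in control and none in cold and was at least 11.1-fold lower, or 7.18 to 7.51 with 1 cold library left out. The DOF5.7 match it belongs to, with 4 of 7 clusters read, did not pass as a whole (log2 fold change -0.19 ± 0.59 SE, adjusted p = 0.79, edgeR).

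Clusters matched mainly to APL, a factor of the phloem, summed to 162 to 170 FPKM in control and 212 to 215 in cold. Of 97 clusters 39 were tested, of which 14 rose and 5 fell. The share in both directions together was near the 45.5% over all tested clusters, which split into 21.9% higher and 23.6% lower. The median log2 fold change of the list was 1.37, beside -0.14 over all tested clusters. Most of them carry APL as the name of a larger family of MYB type factors, and the members went both ways, with PHR1-LIKE 1 at 44.3 to 46.1 FPKM in control and 21.1 to 23.7 in cold. The stomatal factors FAMA and SPEECHLESS summed to 12.9 to 14.3 and 14.6 to 19.2 FPKM, with 1 of 3 tested clusters higher. Of the green leaf clusters 21 were tested, 3 rose and 1 fell. The part of these in the values of the vascular and guard cell Dof factors was not tested. In whole leaves a change in the number of cells of a type and a change in RNA per cell cannot be told apart.

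The remaining 9 tested matches of the other Dof factors did not pass, with log2 fold changes from -1.34 to 0.17, and 4 matches did not have enough counts. All 9 had a lower mean FPKM in cold, by factors of 0.300 to 0.857. FPKM follows the whole-library scale, on which the median log2 fold change over all tested matches of the table was -0.44. The 9 also leave out every match that rose, so a lower FPKM is not particular to them. In FPKM the DOF1.8-like (0.300), DOF1.1-like (0.491), DOF5.1-like (0.631) and DOF5.3 (0.687) matches did not overlap between the groups, and the other 5 did. In normalized CPM only the DOF1.8-like and DOF1.1-like matches were apart. The share of matches without overlap over the whole table was not counted. Scaled to the whole library, the DOF5.3, DOF1.8-like and DOF1.1-like matches passed as lower in cold (adjusted p = 8.60e-03, 0.0201 and 0.0190, edgeR).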

How the data were processed

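Leaf RNA was sequenced in 3 control and 3 cold libraries, assigned by their labels. The authors deposited 1 table with estimated counts and FPKM per cluster and library. The counts are raw and partly fractional. The FPKM the authors deposited are relative to the shortened cluster length given above and to all reads of a library, regulators or not. The submitters' processing notes name Bowtie2 2.0.6 and TopHat2 2.0.12 without their role; for the assembly and for the counting of reads, the program is not given in the sources used here. Beside these, the table holds log2 ratios and q values of the authors' own comparison, which were not used. Each cluster was used once although 492 stand on more than 1 line.

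Counts were rounded and tested with edgeR 4.0.16 (glmQLFit and glmQLFTest) with TMM factors, filterByExpr at its minimum count of 10 and no term but the condition. P-values were adjusted by Benjamini-Hochberg at a threshold of 0.05, over 5004 clusters and over 2296 best matches after summing counts by NR entry. Standard errors were obtained by dividing the log2 fold change by the root of its F statistic. Whole-library totals of 16942437 to 20687393 reads (control) and 13071127 to 14316841 (cold) were recovered from count, FPKM and length for clusters at or above an FPKM of 5. Bounds use a floor of 3 counts over the group at 0 and cover counting error only, not the division of reads between clusters.

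Named clusters and matches were chosen by a written rule: every cyclic cluster that passed, every cyclic match tested, the 5 most abundant clusters of each kind, the 3 most abundant other matches, and among the other Dof factors the 6 with the largest change in each direction (clusters: groups apart and a mean of at least 1 normalized CPM). The members and lists were chosen with earlier results of these data known. Alternatives were DESeq2 1.42.0, RLE factors, table totals, whole-library totals, no filter, a filter that asks for 10 counts in all libraries of either group with a mean of 1 CPM, limma 3.58.1 on log2(FPKM + 1) or log2(FPKM + 0.1), a block for the replicate number, leaving each library out, an adjusted p under 0.01 and a minimum log2 fold change of 1. The test was tested on simulated data first, in which 172 of 4484 tested clusters and 193 of 2216 tested matches were changed. In the real data 45.5% of the clusters and 72.3% of the matches passed, so the simulated shares are not error rates of the results above. In the simulation edgeR recovered 29.7% of the changed clusters and 79.3% of the changed matches, with 3.77% and 4.97% of its calls false. DESeq2 recovered 54.7% of the changed clusters, with 26.0% of its calls false. A cluster that did not pass may therefore still have changed. Software was R 4.3.3, Python 3.11.15, numpy 2.4.6, pandas 2.3.3 and matplotlib 3.10.9.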

Additional observations from a re-analysis of the deposited data

How the results depend on the processing

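Of 568 values recomputed for named clusters and matches, 517 kept their side of the threshold, 40 no longer passed, 5 newly passed and 6 that had passed changed sign. Of the 517, 4 also changed sign, all of matches that did not pass: that led by Cluster-14918.145397 (0.0267 in DESeq2, 0.0274 with RLE factors, 0.5320 without cold library 1) and that led by Cluster-14918.158733 (-0.1967 without cold library 1). The 6 were those of the CDF1 match led by Cluster-14918.104600 (-0.0470 with whole-library totals, -0.0492 and -0.0504 in limma on log2(FPKM + 1) and log2(FPKM + 0.1)) and of that cluster (-0.0087, -0.0219 and -0.0225). Dof clusters that rose, 17 in the main test, were 10 at an adjusted p under 0.01, and those that fell, 6, were 11 in DESeq2, 10 with whole-library totals and 14 in both limma settings. Cyclic clusters that rose, 5, were 3 with table totals, whole-library totals, no filter, both limma settings, an adjusted p under 0.01 and a minimum log2 fold change of 1, and 3 to 5 with a library left out. Cyclic clusters that fell, 3, were 1 at a minimum log2 fold change of 1 and 3 to 5 with a library left out. Other Dof clusters that rose, 12, were 7 at an adjusted p under 0.01, and those that fell, 3, were 7 in DESeq2, 5 with table totals, 6 with whole-library totals and 10 in both limma settings. Dof matches that rose, 14, were 9 at a minimum log2 fold change of 1, and those that fell, 7, were 4 at that limit and 13 in both limma settings. Cyclic matches that rose or fell, 3 each, were 1 each at a minimum log2 fold change of 1. Other matches that fell, 4 beside 11 that rose, were 7 beside 10 with table totals, 7 beside 9 with whole-library totals and 10 beside 10 in both limma settings. The cause of these differences was not tested.

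Replicate numbers did not pair the libraries: the deviations of same-numbered libraries from their group means correlated at -0.030, -0.013 and -0.005. With the replicate number as a block, the counts of clusters were 8 higher and 2 lower for all Dof, 2 and 1 for cyclic Dof, and 6 and 1 for the other Dof clusters.

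The log2 ratio of the summed level was 0.77 for all Dof in normalized CPM, 0.62 in FPKM, 0.54 in whole-library CPM and 0.0901 without the 9 DOF5.4 clusters. For the cyclic clusters it was 0.0086, -0.15 in FPKM and -0.23 in whole-library CPM. For the other Dof clusters it was 1.97, 1.57 in FPKM, 1.74 in whole-library CPM, 2.02 over tested clusters only and 0.34 without DOF5.4, an alternative chosen after seeing the data. Depth limits the matches under about 1 FPKM, where single reads move the ratio.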
